A study of Mus musculus with 12 samples.

Results

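Tight junctions were followed here through 9 genes, the claudin genes Cldn1, Cldn3, Cldn4, Cldn7, Cldn10, Cldn16 and Cldn19, the occludin gene Ocln and Tjp1, the gene of the scaffold protein ZO-1. They were taken by gene symbol as 9 of the 25899 genes in the expression table, and all 9 were found. RNA came from the cut-off apical part of first lower molar germs of C57BL/6 mice at postnatal day 4. Of the 12 libraries, 6 were from Nfic-/- mice (null) and 6 from littermate controls with a single copy of Nfic, Nfic+/- (heterozygous), so the controls also lacked 1 copy. Each library holds all cell types of the cut tissue. The submitters describe 6 mouse pairs, but no label ties a library number to a litter or says how many animals went into a library, so p-values measure the spread between these libraries.

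Tight junctions seal the space between neighbouring epithelial or endothelial cells near the apical surface. Claudins are small membrane proteins whose extracellular loops form the strands, and each claudin makes the strand tighter or lets selected ions through. Occludin sits in the same strands, and ZO-1 ties claudins and occludin to the actin cytoskeleton. In the tooth, the enamel-forming ameloblasts carry junctional complexes that separate the forming enamel from the tissue around it, while the root sheath, mesenchyme, vessels and nerves of the apical part add their own cells.

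Library depth ran from 70.2 to 96.4 M reads, and 11014 to 12518 genes reached 1 RPKM (reads per kilobase of gene length, scaled to library depth). Values given as mean ± are means and SDs over the 6 libraries of a genotype (n = 6). Nfic itself averaged 16.8 ± 4.42 RPKM among the controls and 11.4 ± 3.02 RPKM among the nulls, with overlapping ranges. All 7 enamel markers, 6 odontoblast markers and 12 epithelial adhesion markers reached 1 RPKM in at least 1 library. None of 11 salivary gland markers did. The 4 libraries numbered 8 and 9, a null and a heterozygous library under each number, stood apart. All 20 intestinal markers were at 0.5 RPKM or more in these 4, with sums of 202 to 377 RPKM, against sums of 0.716 to 1.10 RPKM in the other 8. This touches Cldn3 and Cldn7 directly, so the members' main differences are also given without these libraries.

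The members spanned more than 3 orders of magnitude, and their order is in terms of mean RPKM over the 12 libraries, a level per gene length. Cldn1 led with 122 RPKM, followed by Tjp1 with 21.6, Cldn10 with 10.6 and Ocln with 2.79 RPKM. Cldn1 stood above Tjp1, Tjp1 above Cldn10 and Cldn10 above Ocln in 12 of 12 libraries. Below them the order was not stable. Ocln exceeded Cldn7 (mean 2.0 RPKM) in 8 of 12 libraries, Cldn7 exceeded Cldn4 (mean 0.6248 RPKM) in only 4, and Cldn4 exceeded Cldn3 (mean 0.562 RPKM) in 8. Cldn19 (0.0323 RPKM) and Cldn16 (0.0226 RPKM) lay lowest and changed places between libraries, since Cldn19 was the higher in 7 of 12.

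**Figure D1:**
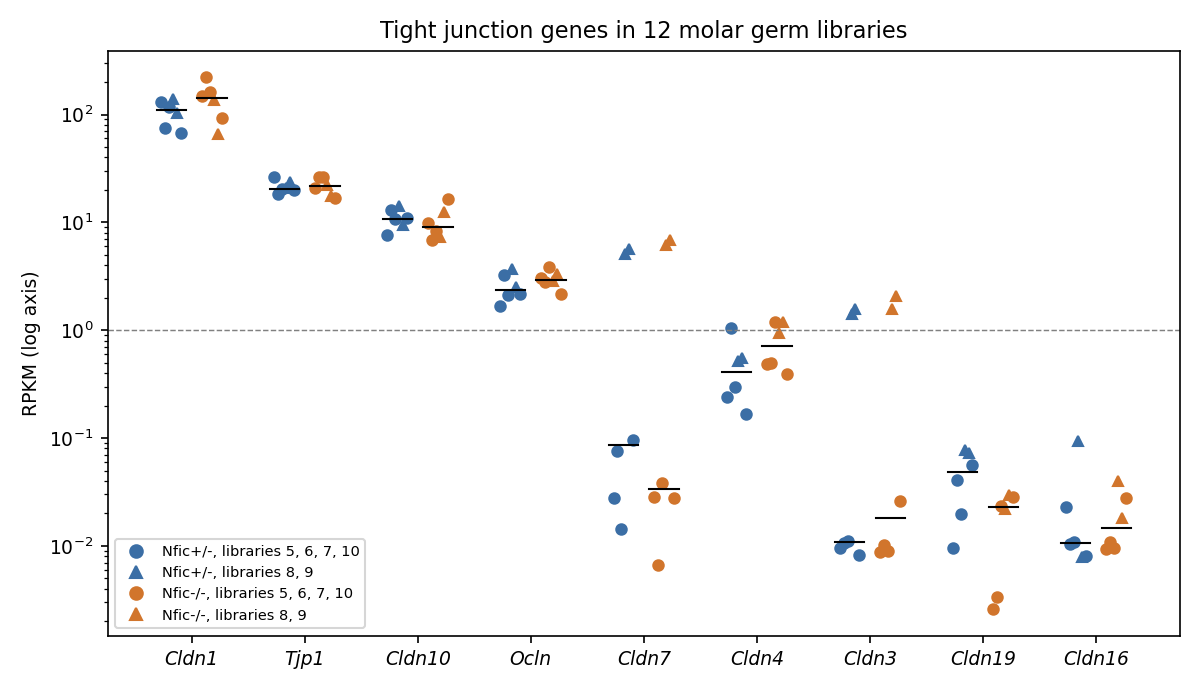
RPKM of the 9 tight junction genes (log axis) in each of 12 libraries, ordered by mean level. Points are libraries, triangles are those numbered 8 and 9, short black lines are group medians and the dashed line is 1 RPKM. Cldn1, Tjp1, Cldn10 and Ocln form separate bands, whereas Cldn7 and Cldn3 are near the bottom in all libraries but the 4 triangles.

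Cldn1, whose product makes barriers tight and is needed for the water barrier of skin, was the main claudin of this tissue. It ran from 68.1 RPKM over a median of 110 to 139 RPKM in the heterozygous libraries and from 66.3 over 142 to 221 RPKM in the null libraries. The groups overlapped, with null replicates 5, 6 and 7 above every control and the other 3 null libraries within or just below the range of the controls. Cldn1 made up 43.1% to 66.8% of the summed RPKM of 23 measured claudin genes. With Cldn20, a little studied claudin counted over a coding-length model of 660 bases, it came to 69.2% to 92.6% of that sum.

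Cldn10 encodes a claudin that forms ion-selective pores. Its range was 7.59 to 14.3 RPKM with a median of 10.8 in heterozygous libraries, and 6.82 to 16.6 RPKM with a median of 9.08 in null libraries. The null range enclosed the heterozygous range. Tjp1 varied least of all members, with a coefficient of variation of 15.4% over the 12 libraries. It lay between 18.4 and 26.2 RPKM (median 20.6) in heterozygous and between 16.9 and 26.1 RPKM (median 21.6) in null molars. Ocln lay between 1.67 and 3.68 RPKM (median 2.34) in heterozygous and between 2.17 and 3.84 RPKM (median 2.95) in null molars, and 5 of 6 null libraries were above the heterozygous median.

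Members also lie next to each other in the genome. Cldn1, the highest, and Cldn16, the lowest by mean level, face away from each other on chromosome 16, 91.3 kb apart (GRCm38). Cldn3 and Cldn4 lie 39.3 kb apart on chromosome 5, with similar mean levels but a different spread over the libraries. Cldn16 and Cldn19 encode partners that form a cation-selective channel in the kidney, and inherited loss of either is associated with enamel defects in humans. Cldn16 had 0 to 10 reads per library and no read in 6 libraries, where 3 reads would have been 0.0265 to 0.0364 RPKM, so in those libraries it was not detected at this depth. Cldn19 had 1 to 30 reads. Cldn4, a barrier claudin of many simple epithelia, had 29 to 201 reads, which is 0.167 to 1.04 RPKM in heterozygous and 0.393 to 1.18 RPKM in null libraries. The limit for Cldn16 covers counting error only.

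The 250 bases before the RefSeq start (GRCm38.p6) of these neighbours and of Cldn7 are shown because Cldn1 and Cldn16 differ so widely in level and because Cldn3 and Cldn7 appear in the same libraries. For Cldn7 the first of its 2 RefSeq starts is shown. All 9 members were matched, at 13 starts. Capitals mark the short recognition motif of nuclear factor I proteins, TTGGC or GCCAA when read on the other strand, searched on both strands. The sequences are written 5′ to 3′ on the strand of the gene.
Cldn1, chr16:26371840-26372089, minus strand: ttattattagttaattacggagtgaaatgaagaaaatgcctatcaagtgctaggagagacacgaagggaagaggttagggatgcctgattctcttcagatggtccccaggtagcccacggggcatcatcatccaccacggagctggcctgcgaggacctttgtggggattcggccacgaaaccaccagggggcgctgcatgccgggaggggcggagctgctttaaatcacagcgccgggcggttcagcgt
Cldn16, chr16:26462885-26463134, plus strand: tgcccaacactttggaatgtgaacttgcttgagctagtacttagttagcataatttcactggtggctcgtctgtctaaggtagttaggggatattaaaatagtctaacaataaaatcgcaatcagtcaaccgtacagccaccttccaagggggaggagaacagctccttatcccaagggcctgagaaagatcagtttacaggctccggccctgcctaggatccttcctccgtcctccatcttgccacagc
Cldn3, chr5:134985964-134986213, plus strand: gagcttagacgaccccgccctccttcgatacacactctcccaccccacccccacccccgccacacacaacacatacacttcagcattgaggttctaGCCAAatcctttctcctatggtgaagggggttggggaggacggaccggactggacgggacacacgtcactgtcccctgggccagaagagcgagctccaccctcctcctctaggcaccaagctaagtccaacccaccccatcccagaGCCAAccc
Cldn4, chr5:134946935-134947184, minus strand: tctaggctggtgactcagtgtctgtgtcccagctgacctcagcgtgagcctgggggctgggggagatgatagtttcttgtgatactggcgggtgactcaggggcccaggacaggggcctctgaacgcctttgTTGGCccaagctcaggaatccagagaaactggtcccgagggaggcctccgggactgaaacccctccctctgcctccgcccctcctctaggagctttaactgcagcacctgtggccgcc
Cldn7, chr11:69964529-69964778, plus strand: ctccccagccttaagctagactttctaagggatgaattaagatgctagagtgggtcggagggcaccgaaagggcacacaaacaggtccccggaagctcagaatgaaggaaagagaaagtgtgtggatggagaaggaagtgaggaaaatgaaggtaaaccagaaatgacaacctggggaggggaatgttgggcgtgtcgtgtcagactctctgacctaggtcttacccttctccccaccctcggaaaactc
In Cldn3 the motifs begin 154 and 8 bases before the start, and in Cldn4 the motif begins 118 bases before it. None of the 3 others shown holds these letters, but the second start of Cldn7 has the motif 73 bases before it. The motif was present at 5 of 13 member starts (38.5%), beside 41.5% of 32851 starts of all genes searched in the same way, and it may overlap a CCAAT box, although 0 of the 6 matches in the members did. The matches at the 2 starts of Cldn19, 75 and 103 bases before them, are the same genomic site, counted at both. The full palindrome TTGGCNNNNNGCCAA occurred at none of the member starts and at 12 starts in all (0.04%). These matches describe letters only.

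Cldn3 and Cldn7 were seen almost entirely in the 4 libraries that also held intestinal transcripts. Cldn7, an adhesion-linked claudin of gut and other simple epithelia, was at 5.12 and 5.64 RPKM in heterozygous replicates 8 and 9 and at 6.11 and 6.81 RPKM in null replicates 8 and 9. In the other 8 libraries it lay between 0.00658 and 0.0965 RPKM. These are 900 to 1248 reads in the 4 libraries and at most 18 reads in any other. Cldn3, which encodes a barrier claudin, was at 1.40 and 1.59 RPKM in the heterozygous pair and at 1.57 and 2.09 RPKM in the null pair, against 0.00827 to 0.0260 RPKM elsewhere, or 160 reads and more against at most 3. The 4 libraries held 98.8% of all Cldn7 reads and 99.1% of all Cldn3 reads. Cldn3 overlaps the antisense gene Wbscr25, and Cldn19 overlaps the antisense Gm12927, and whether counting used strand is not given in the sources used here, so reads of the partners cannot be told apart.

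The ratio of Cldn3 to Cldn7 (RPKM) was 0.274, 0.281, 0.258 and 0.306 in heterozygous 8, heterozygous 9, null 8 and null 9. The ratio of Cldn7 to Vil1, the gene of the microvillus protein villin, was 0.842, 0.788, 0.937 and 0.810 in the same order. Both ratios therefore moved little among libraries of either genotype. Among the 9 members, Cldn3 and Cldn7 were the only 2 with all 4 of these libraries above the other 8, a pattern shown by 2.27% of all genes in the table. Of the other tight junction genes, Cldn15 (1.71 to 1.93 against at most 0.0927 RPKM) and Cldn2 (0.187 to 0.380 against at most 0.137 RPKM), both pore-forming claudins, followed it. So did the scaffold genes Tjp3 (0.630 to 0.681 against at most 0.210 RPKM) and Cgn, the gene of cingulin (0.223 to 0.231 against at most 0.0417 RPKM). Cldn4 was at 0.520 to 1.18 RPKM in the 4 libraries and at 0.167 to 1.18 RPKM in the others, and Ocln at 2.53 to 3.68 and 1.67 to 3.84 RPKM, so neither set these libraries apart.

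**Figure D2:**
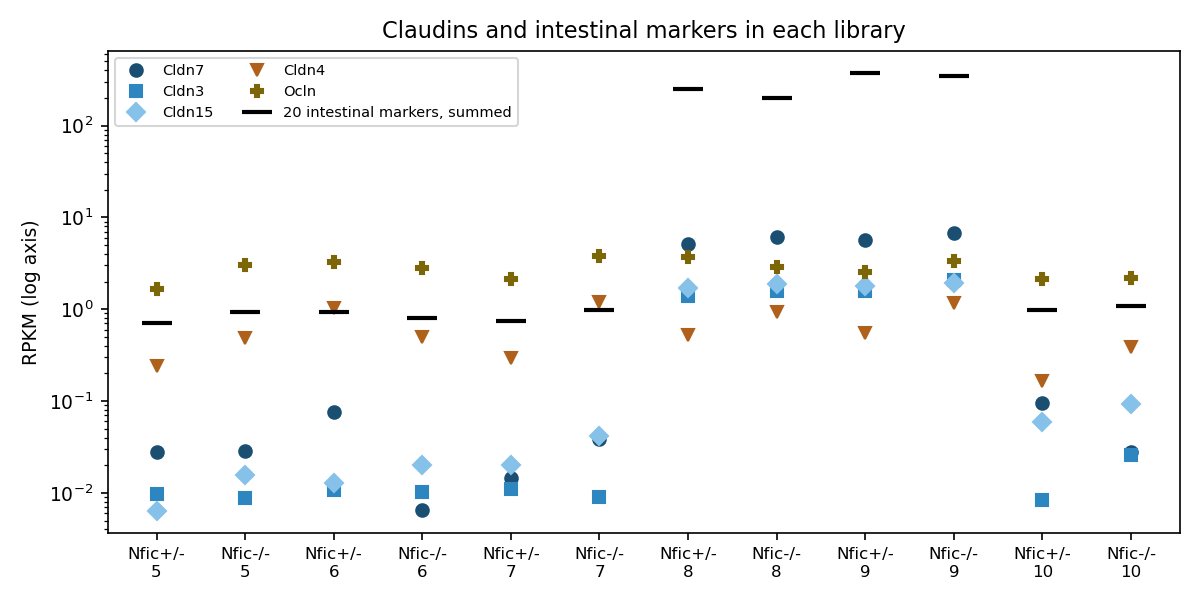
RPKM (log axis) of Cldn7, Cldn3, Cldn15, Cldn4 and Ocln, and the summed RPKM of 20 intestinal markers, in each library by genotype and number. In the libraries numbered 8 and 9 the marker sum is 202 to 377 RPKM and Cldn7, Cldn3 and Cldn15 are raised together, while Cldn4 and Ocln keep the range of the other 8 libraries.

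The main comparison asked how the members differ between null and heterozygous molars. No tight junction gene passed the test. Cldn1 and Ocln were on average higher in null molars, Cldn10 was lower and Tjp1 was level, all by less than the spread between libraries. Of the 9 members 5 (Cldn1, Cldn7, Cldn10, Ocln and Tjp1) reached the mean of 1 RPKM that the test required, and Cldn7 did so only through libraries 8 and 9. Differences are null minus heterozygous on the log2(RPKM + 1) scale, which understates changes of low genes. By limma with Benjamini-Hochberg adjustment over 12094 genes, 0 of the 5 members had an adjusted p under 0.05, as did 0.00% of all genes, and 0 had an unadjusted p under 0.05, beside 5.34% of all genes. The members' differences were positive for 3 and negative for 2, with a median of 0.05. That median is the value of Cldn7, 1 of the 3, which turned to -0.039 without libraries 8 and 9. Over all tested genes 48.9% were positive, with a median of -0.00282.

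Cldn1 averaged 106 ± 29.1 RPKM among controls and 138 ± 54.6 RPKM among nulls, a difference of 0.33 (SE 0.267, 95% interval -0.25 to 0.90) with a limma adjusted p of 1, and 4 of 6 null libraries were above the heterozygous median. The column names carry sample numbers that repeat between the libraries numbered 5 to 7 and those numbered 8 to 10, here called the first and the second set, and no label names a run. The Cldn1 difference was 0.73 within the first set (SE 0.243, limma adjusted p = 0.983) and -0.074 within the second, and 0.66 when libraries 8 and 9 were left out. Leaving out both libraries numbered 6 gave 0.09, and leaving out null replicate 6, heterozygous replicate 10 or null replicate 9 gave 0.17, 0.21 or 0.52. The size of the Cldn1 difference thus depended on which libraries were used.

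Ocln averaged 2.57 ± 0.762 RPKM among controls and 3.01 ± 0.556 RPKM among nulls, a difference of 0.18 (SE 0.141, 95% interval -0.12 to 0.49, limma adjusted p = 1). It was 0.36 within the first set and 0.0092 within the second, 0.10 without heterozygous replicate 5 and 0.27 without libraries 8 and 9. Cldn10 averaged 10.99 ± 2.40 RPKM among controls and 10.2 ± 3.75 RPKM among nulls, a difference of -0.13 (SE 0.196, 95% interval -0.55 to 0.29, limma adjusted p = 1). Its difference was -0.28 and 0.019 within the sets, -0.27 without null replicate 10, -0.22 without heterozygous replicate 5 and -0.036 when null replicate 6 was omitted. Omitting libraries 8 and 9 gave -0.066. Tjp1 averaged 21.6 ± 2.89 and 21.6 ± 4.00 RPKM, and its difference of -0.01 (SE 0.121, limma adjusted p = 1) had the narrowest 95% interval of the tested members, -0.27 to 0.26. Within the sets Tjp1 was at 0.17 and -0.18, and without libraries 8 and 9 at 0.072. Cldn7 differed by 0.05 (SE 0.705, 95% interval -1.47 to 1.57), and without libraries 8 and 9 by -0.039.

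**Figure D3:**
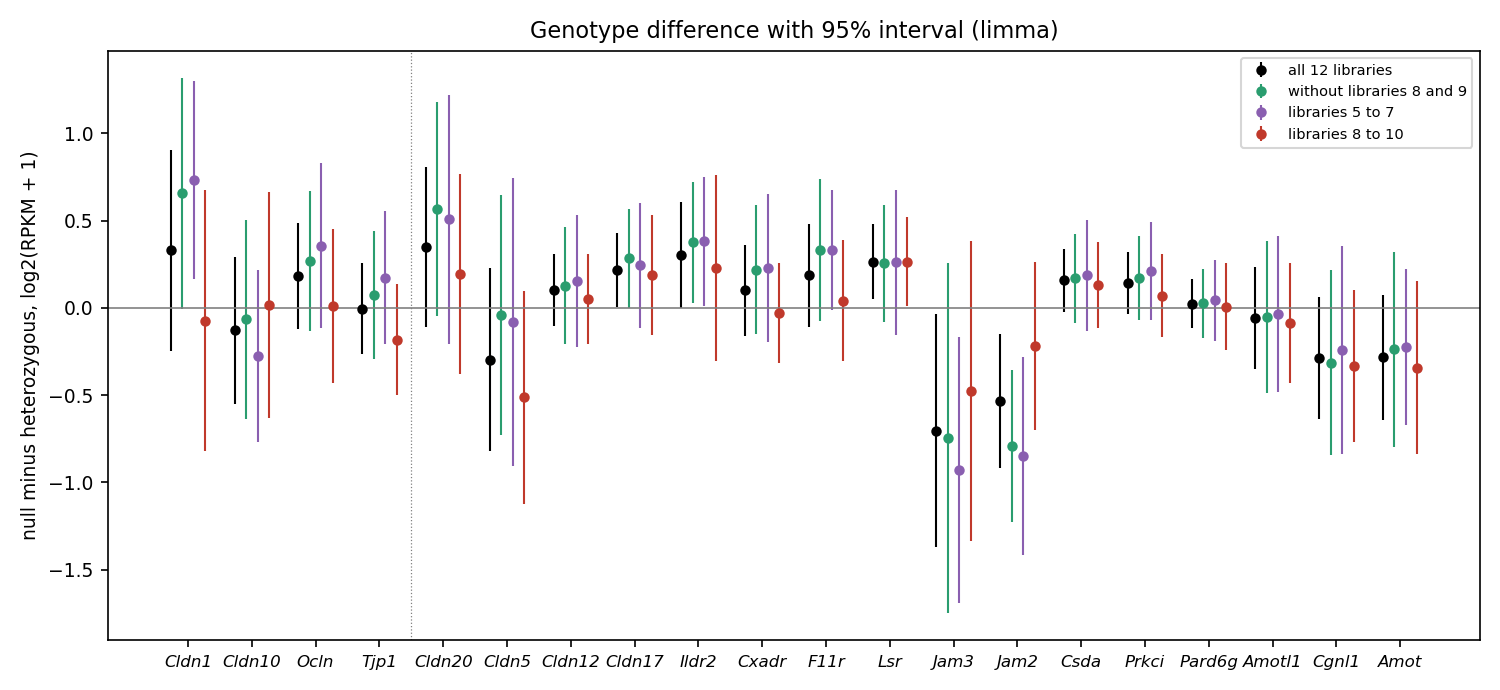
Null minus heterozygous difference in log2(RPKM + 1) with its 95% interval (limma) for 4 members, left of the dotted line, and the 16 other tight junction genes named by the rule for the 3 further lists, in all 12 libraries and in 3 subsets. With all libraries the intervals of Cldn1, Cldn10, Ocln and Tjp1 all include 0, and that of Cldn1 lies above 0 in libraries 5 to 7.

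For the members below the filter, and for all others, an exact 2-sided permutation of the genotype labels was used. None of the 9 members had an unadjusted p under 0.05, beside 3.37% of all 25899 genes and 4.82% of the 12094. Cldn4 averaged 0.471 ± 0.321 RPKM among controls and 0.779 ± 0.366 RPKM among nulls, with 5 of 6 null libraries above the heterozygous median and a difference of 0.28 (exact permutation p = 0.130). Without heterozygous replicate 6, the highest control, it was 0.38 (exact permutation p = 0.0455). The other 11 single omissions gave 0.21 to 0.34 (exact permutation p from 0.0844 to 0.249), and leaving out libraries 8 and 9 gave 0.20 (exact permutation p = 0.429). Cldn19 went the other way at 0.0463 ± 0.0279 and 0.0183 ± 0.0122 RPKM, or 105 against 41 reads in all, with 0 of 6 null libraries above the heterozygous median (exact permutation p = 0.0584). Without heterozygous replicate 5 or 7 its exact permutation p was 0.0130 or 0.0325, the other 10 single omissions gave 0.0584 to 0.106, and it was 0.257 without libraries 8 and 9. In the limma test without a filter Cldn19 had an unadjusted p of 0.0367, beside 3.57% of genes under 0.05 in that test, and an adjusted p of 0.995. Myelinating Schwann cells also use Cldn19. The 8 Schwann cell markers, of which 4 reached 1 RPKM, summed to 25.2 to 36.5 RPKM among controls and 19.9 to 25.1 RPKM among nulls, most of it from Pmp22, and their part in the Cldn19 values was not tested. Cldn16 had 12 reads in all heterozygous and 10 in all null libraries, and Cldn3 had 356 and 421. Of these Cldn3 reads 770 came from libraries 8 and 9 and 7 from the others. Cldn3 differed by 0.06 (exact permutation p = 0.682), and without libraries 8 and 9 by 0.0050 (exact permutation p = 0.8).

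Epithelial markers are given beside these values. All 12 epithelial adhesion markers had positive differences, and their mean log2(RPKM + 1) was higher by 0.28 in null molars (exact permutation p = 0.0649). Their sums were 1783 to 2717 RPKM among controls and 2157 to 3184 RPKM among nulls. The 7 enamel (ameloblast) markers were level, with a mean difference of 0.0041 (exact permutation p = 0.998) and 5 of 7 positive. They summed to 36034 to 142043 RPKM among controls and 52825 to 140049 RPKM among nulls. All 6 odontoblast markers had negative differences, with a mean of -0.55 (exact permutation p = 0.0260) and sums of 2556 to 4356 RPKM among controls and 1714 to 3359 RPKM among nulls, and their part in the members' values was not tested. In bulk tissue, fewer cells of a type and less RNA per cell cannot be told apart. Differences were also taken relative to the epithelial adhesion markers in the same library. Cldn1 was at 0.05 (exact permutation p = 0.879) and Ocln at -0.10 (exact permutation p = 0.318). Without libraries 8 and 9 the relative difference of Cldn1 was 0.35. Tjp1 was at -0.28 (exact permutation p = 0.117) and Cldn10 at -0.41 (exact permutation p = 0.160). The own difference of Tjp1 was -0.01, so its relative value is nearly that of the reference with the sign turned. None of these 4 was past 0.05, whereas 18.2% of genes at a mean of 1 RPKM or more were under 0.05 by this measure. Of those 2203 genes 2202 were lower, so the measure largely carries the rise of the reference. Over all 9 members the count was 1, beside 15.0% of all genes (3874, of which 3873 were lower). That member was Cldn19 (-0.32, exact permutation p = 0.0455), whose own level on this scale is close to 0, so that the value is nearly that of the reference, and the same holds for Cldn16 (-0.29, exact permutation p = 0.0606). Leaving out a single library brought the count to 0 in 8 of 12 cases, namely for the controls numbered 5, 7, 9 and 10 and for the nulls numbered 5, 6, 7 and 9. It was 3 without heterozygous replicate 6, where Cldn16, Cldn19 and Tjp1 (-0.41, exact permutation p = 0.0108) were past 0.05, and 3 without null replicate 10, where Cldn10 (-0.63, exact permutation p = 0.0152), Cldn16 and Cldn19 were. The share over all genes is not given for these omissions, so their counts are not read as results about the members.

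Across the 12 libraries, Cldn10 and Tjp1 varied in opposite directions and Cldn1 varied with Tjp1. All 6 pairs among Cldn1, Cldn10, Ocln and Tjp1 were computed on log2(RPKM + 1), with 100000 permutations and Benjamini-Hochberg adjustment over the 6. Cldn10 and Tjp1 had Pearson r = -0.862 (permutation p = 0.00055, adjusted 0.0033) and Spearman rho = -0.832 (permutation p = 0.0013, adjusted 0.0078), with r = -0.804 in heterozygous and -0.915 in null libraries. It was -0.959 within the first set, -0.747 within the second, and -0.771 without the 2 libraries farthest from the Cldn10 median. Cldn1 and Tjp1 had r = 0.744 (permutation p = 0.00656, adjusted 0.0197) and rho = 0.727 (permutation p = 0.0103, adjusted 0.0309), with r = 0.579 and 0.892 in the 2 genotypes, 0.770 and 0.570 in the 2 sets, and 0.707 without the 2 farthest. Cldn1 and Cldn10 had r = -0.623 (permutation p = 0.0313, adjusted 0.0625) and did not pass, and Ocln followed none of the 3 over all libraries (r from -0.0296 to 0.166). Ocln and Cldn10 had r = 0.899 among the 6 controls and -0.466 among the 6 nulls, a difference that was not tested. These correlations rest on libraries that share tissue makeup and scaling. The permutations, here and for the marker lists below, treated the 12 libraries as independent. After subtracting group means, a null library and the control of the same number correlated at up to 0.802. The permutation p-values may therefore be too small. For Cldn7, the other member at a mean of 1 RPKM or more, no r over the 12 libraries is given here or below, since libraries 8 and 9 form a separate cluster.

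The members were set beside 5 marker lists in the same way, which gave 20 relations adjusted together, of which 8 passed for r. The lists were taken from 9 after the values were seen, and the strongest relation of each member is described and plotted. Ocln followed the 12 epithelial adhesion markers (r = 0.823, permutation p = 0.00163, adjusted 0.0109, rho = 0.818, permutation p = 0.00203, adjusted 0.0203) and no other list. Within the sets of libraries 5 to 7 and 8 to 10 its r was 0.899 and 0.823, and it was 0.807 without the 2 farthest libraries. Tjp1 followed the 7 enamel markers (r = 0.828, permutation p = 0.00092, adjusted 0.0092, rho = 0.846, permutation p = 0.00089, adjusted 0.0178), at 0.840 and 0.800 within the sets and 0.734 without the 2 farthest. Cldn1 ran against the 8 mesenchyme markers (r = -0.830, permutation p = 0.00091, adjusted 0.0092, rho = -0.720, permutation p = 0.0107, adjusted 0.0389), at -0.927 and -0.562 within the sets and -0.874 without the 2 farthest. Cldn10 ran with the same mesenchyme markers (r = 0.776, permutation p = 0.00281, adjusted 0.0140, rho = 0.783, permutation p = 0.00359, adjusted 0.0239), at 0.878 and 0.609 within the sets and 0.686 without the 2 farthest. The other relations that passed involved the same members. With the enamel markers, Cldn1 had r = 0.730 (adjusted permutation p = 0.0255) and Cldn10 r = -0.696 (adjusted permutation p = 0.0309). Tjp1 had r = -0.698 with the mesenchyme markers (adjusted permutation p = 0.0309). Cldn10 had r = 0.716 with the endothelial markers (adjusted permutation p = 0.0255). Cldn1 and Tjp1 thus both ran with enamel and against mesenchyme markers, and Cldn10 the other way. None of Cldn1, Cldn10 and Tjp1 passed with the epithelial adhesion markers, where r was 0.289, -0.211 and 0.162.

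**Figure D4:**
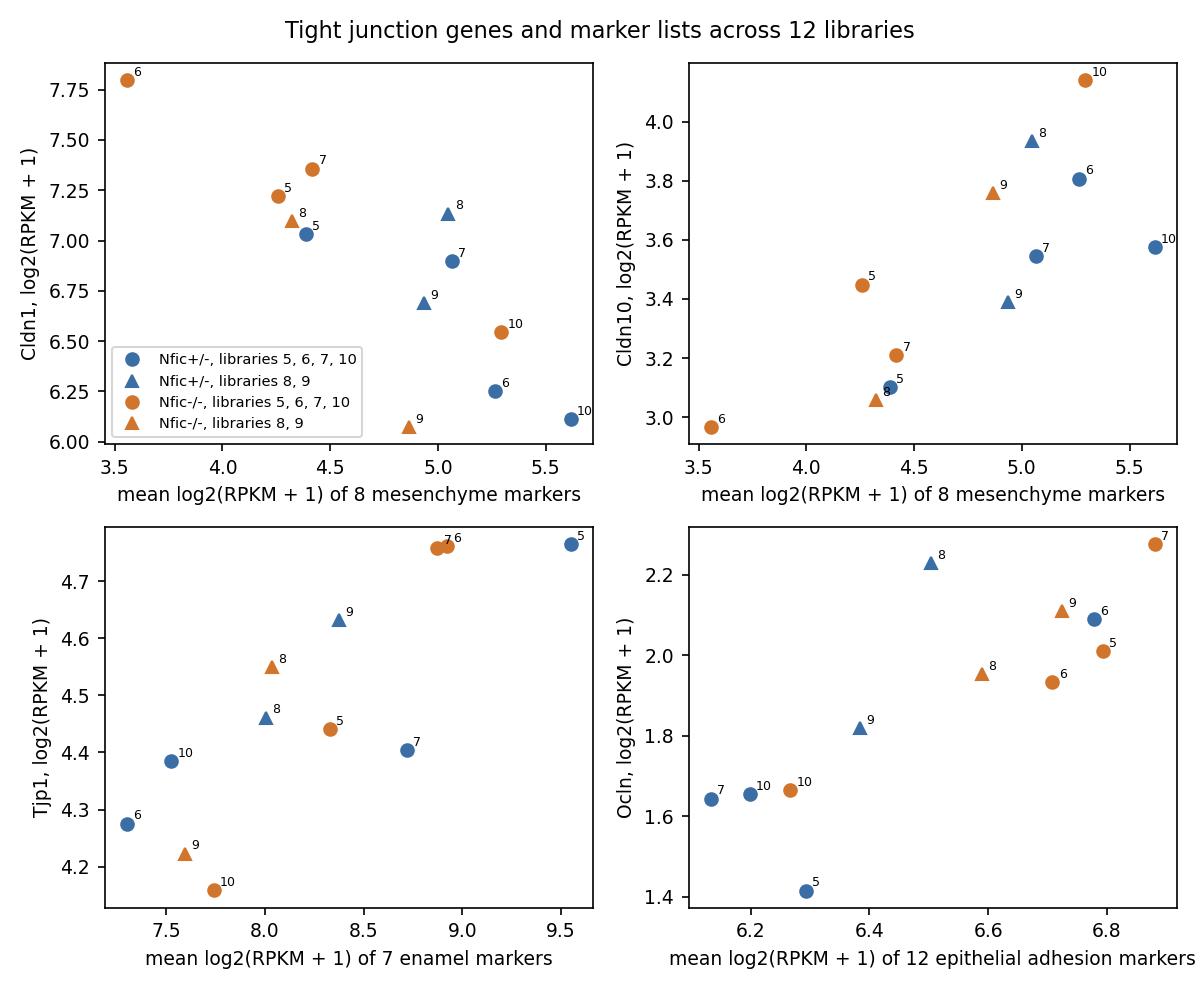
Each panel plots a member's log2(RPKM + 1) against the mean log2(RPKM + 1) of the marker list to which it had its strongest relation. There is 1 point per library labelled by its number, blue for Nfic+/-, orange for Nfic-/- and triangles for libraries 8 and 9. Cldn1 falls and Cldn10 climbs as mesenchyme markers increase, Tjp1 climbs with enamel markers (r = 0.828) and Ocln with epithelial adhesion markers (r = 0.823).

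The genes whose levels over the 12 libraries were most like a member's, by Pearson r among 12094 genes, differed from member to member. For Cldn1 they were Spsb1, Cntnap2, Ppap2a, Nenf and Ephb3 (r from 0.929 to 0.945). For Cldn10 they were Xrcc6bp1, Fabp3-ps1, Rgs10, Stxbp6 and S100a13 (r from 0.941 to 0.963). Tjp1 was closest to Mob3b, Slc39a14, Tspan14, Btbd3 and Kcna3 (r from 0.910 to 0.954), and Ocln to Fbxo34, Sec14l1, Ctsa, Tom1l2 and Limk2 (r from 0.883 to 0.901). These are the highest of many correlations and carry no p.

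Other genes of the tight junction were read from 3 lists. Of 16 other measured claudin genes 4 were tested, with 0 adjusted p under 0.05 and a median difference of 0.16. Cldn20 averaged 48.0 ± 14.9 RPKM among controls and 60.2 ± 14.8 RPKM among nulls, a difference of 0.35 (SE 0.213) that became 0.57 when libraries 8 and 9 were omitted and 0.11 when both libraries numbered 6 were. Cldn17 averaged 2.48 ± 0.324 and 3.05 ± 0.489 RPKM, with an unadjusted limma p of 0.0445 and an adjusted p of 0.934. Cldn12 differed by 0.10 (SE 0.0965). Cldn5, the claudin of blood vessels, differed by -0.30 (SE 0.244), and without libraries 8 and 9 by -0.043. All 8 endothelial markers had negative differences as well, with sums of 29.0 to 55.4 RPKM among controls and 14.5 to 46.4 RPKM among nulls, and their part in the Cldn5 value was not tested.

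Of 11 other membrane proteins 9 were tested, with 6 positive and 3 negative differences, 0 adjusted p under 0.05 and a median of 0.10. Lsr, the gene of the angulin that marks the corners of epithelial cells, averaged 9.51 ± 1.64 RPKM among controls and 11.5 ± 1.13 RPKM among nulls. Its difference of 0.26 (SE 0.0999, limma adjusted p = 0.934) was 0.26 within the first set and 0.27 within the second. Its relative Ildr2 differed by 0.30 (SE 0.141, limma adjusted p = 0.934). The junctional adhesion molecule genes Jam2 and Jam3, which are also used by endothelial and other non-epithelial cells, had negative differences. Jam2 averaged 6.03 ± 1.39 and 3.90 ± 1.21 RPKM, a difference of -0.53 (SE 0.179, limma adjusted p = 0.934), at -0.85 and -0.22 within the sets. Jam3 averaged 8.05 ± 2.59 and 5.05 ± 3.29 RPKM, a difference of -0.70 (SE 0.311, limma adjusted p = 0.934). Lsr, Ildr2, Jam2 and Jam3 were the 4 of the 9 tested with an unadjusted limma p under 0.05, beside 5.34% of all tested genes. All 12 epithelial adhesion markers had positive differences, as Lsr and Ildr2 did, and their part in the Lsr and Ildr2 values was not tested. All 8 mesenchyme markers had negative differences, as Jam2 and Jam3 did. They summed to 441 to 1038 RPKM among controls and 245 to 926 RPKM among nulls, and their part in the Jam2 and Jam3 values was not tested. F11r, the junctional adhesion molecule gene of epithelium, differed by 0.19 (SE 0.138), or 0.33 without libraries 8 and 9, and the virus receptor and adhesion gene Cxadr by 0.10 (SE 0.121), which became 0.22 when libraries 8 and 9 were omitted and -0.011 when both libraries numbered 6 were.

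Of 21 measured plaque genes, which encode the scaffold and polarity proteins beneath the membrane, 18 were tested. Here 9 differences were positive and 9 negative, and the median was -0.00086. An unadjusted limma p under 0.05 was found for 0 of them, beside 5.34% of all tested genes. The most abundant were Csda, which encodes the ZO-1 binding Y-box factor, at 115.5 ± 11.05 and 128.9 ± 11.57 RPKM among controls and nulls, the polarity kinase gene Prkci at 31.5 ± 2.65 and 34.9 ± 3.78 RPKM, Pard6g at 28.8 ± 1.43 and 29.3 ± 1.90 RPKM and Amotl1 at 23.5 ± 4.64 and 22.4 ± 3.54 RPKM. Cgnl1, the gene of paracingulin, and Amot had the smallest p among the negative ones, with differences of -0.29 (SE 0.162) and -0.28 (SE 0.166).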

How the data were processed

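RNA sequencing of 12 libraries was used. TopHat2 and the mouse build mm10 are named per the submitters' processing notes. How reads were counted, with which annotation and strand setting, was not given in the sources used here. Values deposited by the authors were log2 RPKM, from -11.1 to 16.7. The base was settled from the values: undoing the log and multiplying by GENCODE M21 exon length gave gene reads at 0.773 to 0.835 of depth for base 2, but 8.23 to 28.4 times depth for base e. Genes without reads carried a floor of 0.9 reads, from which depth was read, and reads of low genes were recovered as whole numbers within 0.05 reads. Of 25899 genes 24987 matched GENCODE M21 (GRCm38) by identifier.

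The log was undone and log2(RPKM + 1) was fitted with limma 3.58.1 in R 4.3.3 (intensity trend, genotype as the only term, mean level of at least 1 RPKM, Benjamini-Hochberg threshold 0.05). Procedures were tested on simulated data. Python 3.11.15, numpy 2.4.6, pandas 2.3.3, scipy 1.17.1 and matplotlib 3.10.9 were used. Sequences are RefSeq's (GRCm38.p6). Genes named were all members, Nfic, the 4 most abundant and the 2 of smallest p per direction in each other list, and the 5 genes most correlated with each tested member. Those of Cldn7 were left out after their values were seen, since the 4 libraries numbered 8 and 9 set its correlations. Cldn15, Cldn2, Tjp3, Cgn and Pmp22 were named after their values were seen. The members, lists and tests were chosen with earlier results of these data known. Relations to marker lists were added after seeing the values. The alternatives tried were other pseudocounts, filters, scalings, variance models, library weights, a rank test, the replicate number as a block and subsets of libraries.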

Additional observations from a re-analysis of the deposited data

Results flagged for a closer look

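Of 50 gene and group combinations examined, 1 had a library far from the rest of its group, where chance alone gives about 1 in 20. Cldn16 in heterozygous replicate 8 was at 0.0944 RPKM (10 reads), and the next heterozygous library was at 0.0231 RPKM. On the log2(RPKM + 1) scale the gap was 0.819 of the group's range.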

How the results depend on the processing

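In limma, 0 members and 0 of the other tight junction genes were called in all alternatives, including library weights, which called 17 of 12094 genes (0.141%). After subtracting group means, a null library and the control of the same number correlated at 0.492, 0.00502, 0.310, 0.667, 0.688 and 0.802 (numbers 5 to 10), and for 5 of 6 null libraries the closest control had the same number. No label says that a number marks a litter, so the numbers were not used as pairs. With the replicate block 0 members were called, the smallest adjusted p over all genes was 0.0872, and 981 instead of 646 genes had an unadjusted p under 0.05. The direction reversed for Cldn1 in libraries 8 to 10 (-0.0736), for Cldn10 without libraries 6 (0.0135) and in libraries 8 to 10 (0.0187), and for Tjp1 with median scaling (0.0269), in libraries 5 to 7 (0.172) and without libraries 8 and 9 (0.0724, also with the replicate block). It reversed for Cldn7 with a pseudocount of 0.1 (-0.0901), library weights (-0.994), in libraries 5 to 7 (-0.0206) and without libraries 8 and 9 (-0.0387, also with the replicate block), and for Cldn16 without libraries 8 and 9 (0.00199). With 1 library left out, Cldn7 ranged from -0.346 to 0.408, Tjp1 from -0.0613 to 0.0595, Cldn3 from -0.161 to 0.247 and Cldn16 from -0.0143 to 0.0103. Relative to the epithelial markers, the same ranges were -0.116 to 0.251 for Cldn1, -0.0546 to 0.0705 for Cldn4 and -0.612 to 0.128 for Cldn7. The number of members at an exact permutation p under 0.05 was 0 to 1 with 1 library left out. Relative to a reference it was 5 against Krt14, 0 against Cdh1, 0 against the enamel markers, 0 without libraries 8 and 9, and 0 to 3 with 1 library left out. No share over all genes is given for these alternatives, so the counts are not read as results about the members. Krt14 itself ran from 417 to 636 RPKM among controls and from 568 to 776 RPKM among nulls. The values of Cldn16 (-0.461) and Cldn19 (-0.491) against it are nearly those of Krt14 with the sign turned. Against Krt14, Cldn1 turned to -0.123. Against the enamel markers Cldn3 turned to 0.0583, Cldn4 to 0.271, Cldn7 to 0.0454 and Ocln to 0.179. Without libraries 8 and 9, 1 pair of members passed instead of 2. The cause of these moves was not tested. Depth limits Cldn16 and Cldn19, and in 8 libraries Cldn3.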
